A study of Mus musculus with 24 samples.

Results

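Visceral (perigonadal) fat of 4 male mouse libraries labelled with a Tbet knockout in regulatory T cells was compared with that of 4 control male libraries. These 8 libraries were chosen by group label and sex from 24, which hold males and females of 3 genotypes. In the Tbet knockout the gene Tbx21, which encodes the transcription factor T-bet, is deleted in cells that make Cre recombinase from Foxp3. The Pparg knockout, used below for comparison, deletes Pparg in the same cells, and the controls carry the Foxp3 Cre alone, so all 3 genotypes share the Cre. The mice were 27 to 33 weeks old, and each group held 2 libraries of each of 2 batches named in the titles: replicates 1 and 3 were of batch 1, and replicates 2 and 4 of batch 2. RNA came from whole fat tissue, in which regulatory T cells are a minor population, so fewer cells of a type and less RNA per cell cannot be told apart. Nothing in the labels says that the libraries came from separate animals, and p-values measure the spread between these libraries.

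Regulatory T cells are CD4+ lymphocytes that depend on Foxp3 and restrain immune responses. Those of visceral fat are known for Pparg, the IL-33 receptor Il1rl1 and Klrg1, and for their part in fat inflammation and insulin sensitivity. T-bet drives the type 1 program of lymphocytes, which includes interferon gamma and the chemokine receptor Cxcr3, and a share of regulatory T cells uses it as well. NK cells and effector T cells also make Tbx21, so its level in whole fat is not a measure of the deletion.

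Levels are CPM, the count of a gene relative to the library total, on the usual scale of that unit and scaled between libraries by the trimmed mean of M values. Totals were 12551619 to 27520628 counts in Tbet knockout males and 15789476 to 24775804 in control males, within 8345575 to 31022845 over all 24. A gene was called when its edgeR quasi-likelihood p, adjusted by Benjamini-Hochberg over the 17824 genes tested, was under 0.05. The first principal component of the 8 libraries held 55.1% of the variance and separated the batches. Mitochondrial transcripts took 7.02 to 7.72% of counts in Tbet knockout and 5.49 to 7.53% in control libraries of batch 1, against 3.21 to 4.23% and 3.51 to 5.28% in batch 2. Fat was plain in every library: Adipoq, which encodes adiponectin, stood at 1827 to 3425 CPM in Tbet knockout males and 1528 to 2740 CPM in control males. The Y-linked gene Ddx3y stood at 87.7 to 135 CPM in Tbet knockout males and 94.4 to 165 CPM in control males. Xist, at 549 to 1148 CPM in control females, had 0.609, 3.16, 0.993 and 23.3 CPM in Tbet knockout males. Control males had 0.142 to 0.992 CPM of Xist. The source of the Xist RNA in Tbet knockout replicate 4 was not tested.

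Tbx21 itself was near the detection limit. It held 2, 21, 6 and 17 counts in Tbet knockout replicates 1 to 4, or 0.102, 0.746, 0.284 and 1.28 CPM, and 24, 10, 25 and 42 counts in control replicates 1 to 4, or 1.14, 0.620, 1.17 and 1.75 CPM. The lowest values were those of the batch 1 knockout libraries, and the groups overlapped through batch 2. The log2 fold change was -1.13 (95% interval -2.68 to 0.43, unadjusted p = 0.147), which did not pass. Foxp3 was as sparse, at 0.406, 0.284, 0.945 and 0.526 CPM in knockout males and 0.663, 0.248, 0.421 and 0.792 CPM in control males, with a log2 fold change of 0.06 (-1.34 to 1.47, unadjusted p = 0.925). Pparg, which in whole fat is mostly adipocyte RNA, stood at 192, 258, 272 and 201 CPM in knockout males and 255, 206, 253 and 264 CPM in control males (log2 fold change -0.09, unadjusted p = 0.776).

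The 2 batches of libraries labelled Tbet knockout were not alike, and part of the difference followed the other knockout's label. Over both sexes, 14 of 17824 genes (0.0785%) separated the Tbet libraries of batch 1 and the Pparg libraries of batch 2 from the Tbet libraries of batch 2 and the Pparg libraries of batch 1, with no overlap of log2 CPM between 8 libraries and 8. None of the 17824 genes separated all Tbet from all Pparg libraries in that way. Of the 14 genes, 6 lie on chromosome 11, which carries Tbx21 (97098007 to 97115331, GRCm38), and 5 lie within 10 Mb of it, a window that holds 335 (1.88%) of the genes tested. These 5 are C130046K22Rik at 6.60 Mb, Nog at 7.80 Mb, Gm525 at 8.02 Mb, 1700052K11Rik at 8.08 Mb and Elobl at 8.13 Mb. All genes of this check were chosen after their values were seen.

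C130046K22Rik, a transcript with no known role, stood at 0.102 and 0 CPM in the batch 1 Tbet males and at 5.15 and 3.68 CPM in those of batch 2. Pparg knockout males had 2.76 and 4.13 CPM in batch 1 and 0 and 0 CPM in batch 2, and control males 2.79 and 3.41, then 3.90 and 3.999 CPM. The transcript was thus near 0 in the batch 1 libraries of one knockout and the batch 2 libraries of the other, and present in every control. Lrmda, a melanocyte differentiation gene, followed the same order, with 1.62 and 2.84, then 12.3 and 11.4 CPM in Tbet males, 12.7 and 16.3, then 2.89 and 1.64 CPM in Pparg males, and 12.9 to 15.3 CPM in control males.

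Nnt, the mitochondrial transhydrogenase that carries a deletion in the C57BL/6J strain, ran the other way. Tbet males had 66.6 and 55.9 CPM in batch 1 and 20.3 and 28.6 CPM in batch 2, Pparg males 24.7 and 26.5, then 58.2 and 66.3 CPM, and control males 18.5 to 26.03 CPM. Tbet females had 81.6 and 73.1, then 27.3 and 35.7 CPM, so the sexes ran in the same order. Klrg1, a receptor of fat regulatory T cells and of cytotoxic lymphocytes that lies 6.91 Mb from Pparg on chromosome 6, stood at 3.50 and 2.74, then 0.569 and 0.376 CPM in Tbet males. It stood at 0.340 and 0.607, then 3.06 and 2.18 CPM in Pparg males and at 1.18 and 1.03, then 0.496 and 0.167 CPM in control males. Entpd4b, a nucleotidase gene that may share reads with its paralogue Entpd4, had 18.1 and 17.9, then 34.8 and 44.4 CPM in Tbet males. Pparg males had 41.2 and 36.8, then 14.7 and 17.8 CPM of Entpd4b, and control males 35.2 to 50.2 CPM. Whether strain background, the deleted alleles or the labels of 1 batch account for this order was not tested. In females, some other genes followed the labels in both batches. Those given here were picked after their values were seen, and how many genes did so was not counted. Elovl6 stood at 26.5 to 37.0 CPM in the 4 Tbet females and 178 to 597 CPM in the 4 Pparg females, Acly at 223 to 591 and 1283 to 3830 CPM, and Abcg1 at 62.1 to 70.4 and 37.3 to 49.1 CPM. Knockout libraries are named below as labelled, and the comparison with control males was also tested within each batch.

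**Figure D1:**
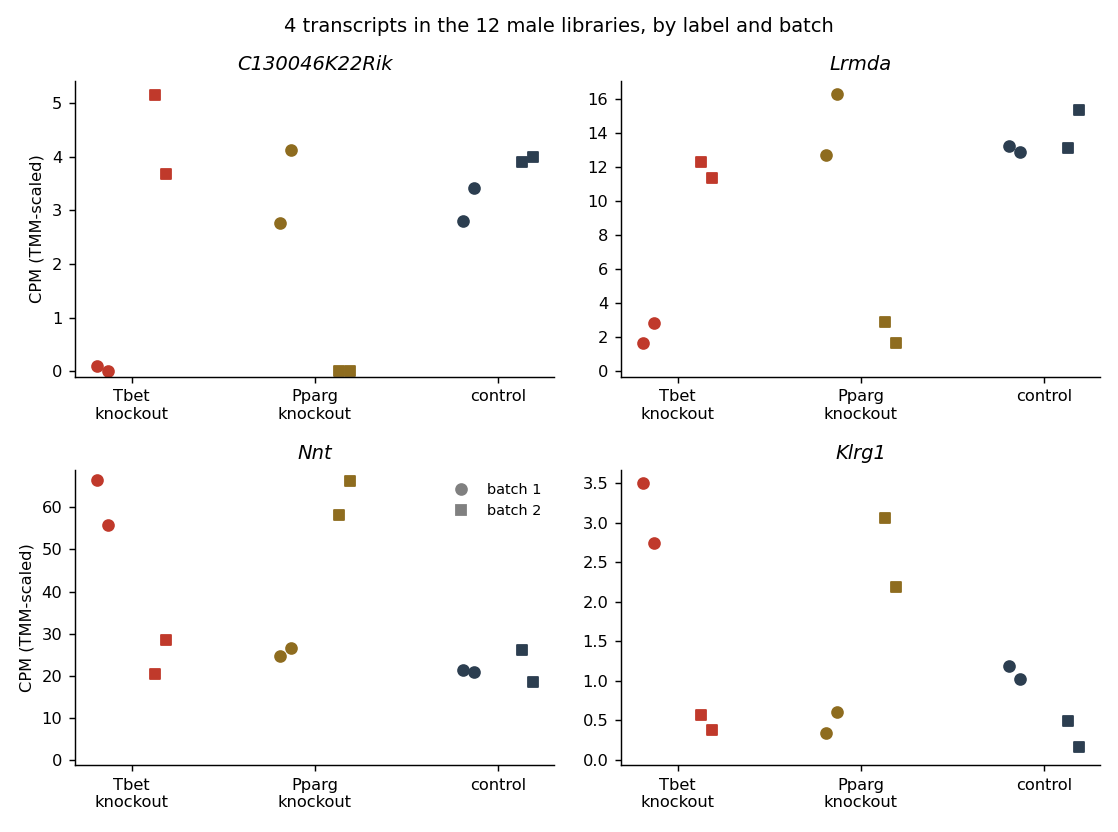
CPM (linear axes from 0) of 4 transcripts in the 12 male libraries, by labelled genotype, with circles for batch 1 and squares for batch 2. C130046K22Rik and Lrmda are low, and Nnt and Klrg1 high, in the Tbet libraries of batch 1 and the Pparg libraries of batch 2, with 66.6 and 55.9 CPM of Nnt in the batch 1 Tbet males against 20.3 and 28.6 CPM in those of batch 2.

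Single libraries also carried RNA of neighbouring organs. Tbet knockout replicate 4 held epididymal transcripts, with Crisp1, a sperm-coating protein, at 3008 CPM against 0 to 0.142 CPM in the other knockout males and 0 to 29.0 CPM in control males. Other defining epididymal genes, Lcn5, Lcn8 and Gpx5, were at 0.0752, 0 and 0 CPM there, and the summed level of the male reproductive tract list was 4699 CPM against 81.8 to 156 CPM in the other 7 libraries. Control replicate 1 held transcripts of sperm precursors, with Prm1, a protamine, at 112 CPM against 0.0467 to 1.71 CPM in the other control males. Control replicate 4 held plasma cell transcripts, with Ighg1, an immunoglobulin heavy chain, at 658 CPM against 0 to 0.434 CPM in the other controls. Foxj1, the factor of ciliated epithelium, was at 18.0, 69.0, 0 and 44.2 CPM in knockout replicates 1 to 4 and at 0.663, 91.5, 0.0935 and 42.9 CPM in control replicates 1 to 4. The part of these tissues in any result was not tested beyond leaving the libraries out.

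**Figure D2:**
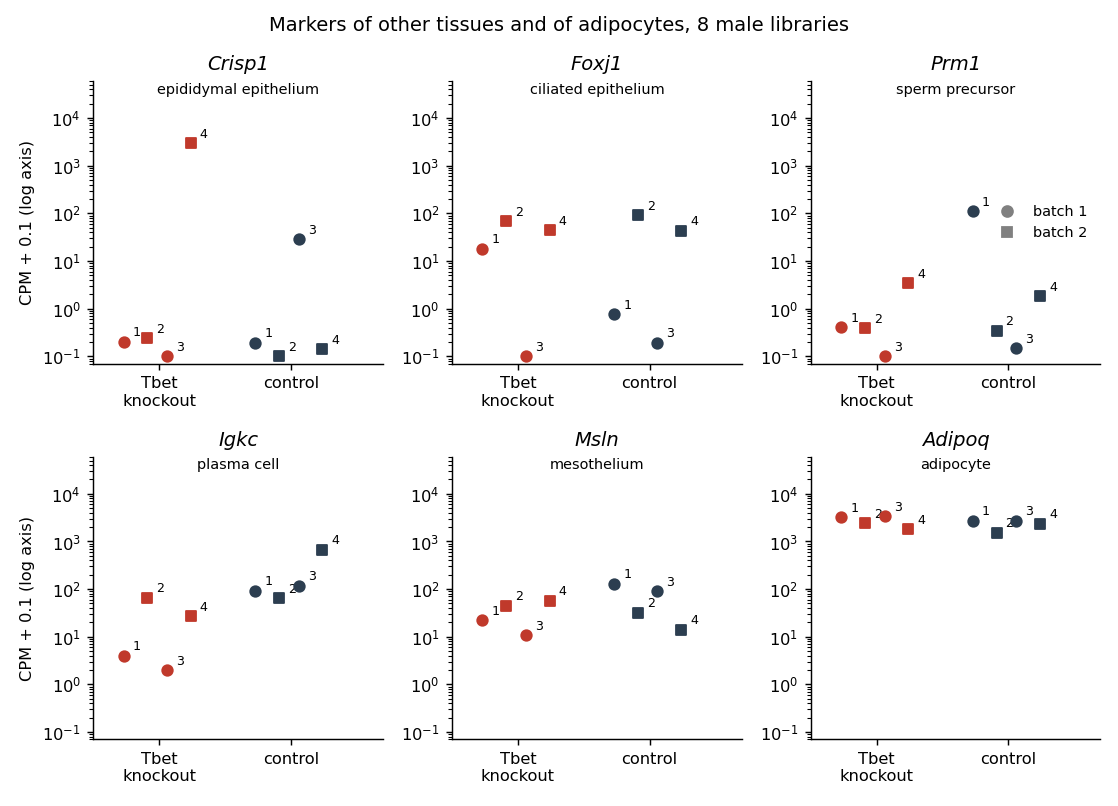
CPM plus 0.1 (log axes) of 5 markers of other cells or tissues and of Adipoq in the 8 male libraries, by genotype, with replicate numbers and with circles for batch 1 and squares for batch 2. Crisp1 reaches 3008 CPM in Tbet knockout replicate 4 alone, and Adipoq lies within 1528 to 3425 CPM in every library.

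Over both batches, 1 gene fell in Tbet knockout males and none rose, which is 0.00561% of the 17824 genes tested. Without adjustment 780 genes (4.38%) had p under 0.05, 387 higher and 393 lower. DESeq2 called 21 genes (10 higher, 11 lower), and limma with voom weights and limma on the authors' log2 FPKM called 1 each. Several of the 21 rested on 1 library, such as Ighg1, at 658 CPM in control replicate 4. Kcnc4 stood at 28.6 CPM in Tbet knockout replicate 4 and at 0.0473 to 0.711 CPM elsewhere. Others, such as Taf15, did not rest on 1 library. The typical precision was a standard error of 0.23 on the log2 scale. The 95% interval lay within 1 log2 unit of 0 for 65.4% of genes, and for 83.4% of the 13640 genes whose mean log2 CPM reached 1. With the 3 libraries that held RNA of other organs left out, edgeR called 0 genes, with 313 at an unadjusted p under 0.05. Leaving out the 5 with Foxj1 at 18.0 CPM or more leaves Tbet knockout replicate 3 alone against control replicates 1 and 3. Only effect sizes are given for that setting.

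The gene that fell was Ide, insulin-degrading enzyme, a zinc peptidase that breaks down insulin and amyloid beta (chromosome 19, 37268743 to 37334544, GRCm38). It stood at 50.7, 74.6, 62.4 and 78.7 CPM in Tbet knockout replicates 1 to 4 and at 113, 134, 118 and 122 CPM in control replicates 1 to 4. All 4 knockout libraries were below all 4 controls, with a gap wider than the range within either group. The log2 fold change was -0.89 (SE 0.14, 95% interval -1.17 to -0.60, edgeR adjusted p = 0.0470), or 0.540 of the control level (0.444 to 0.658). The direction was the same in batch 1 (-1.03, adjusted p = 0.0135) and batch 2 (-0.74, adjusted p = 0.199), and the difference between the batches was -0.29 (adjusted p = 0.737). The call is close to its limit: with the replicate number as a block the adjusted p was 0.157, and without any 1 of the 8 libraries it lay between 0.0654 and 0.363. Of 23 alternatives 6 called Ide, and the 23 placed the log2 fold change between -1.02 and -0.73. Without the 3 libraries with RNA of other organs it was -0.96 and did not pass.

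Ide was also lower in Tbet females. Tbet females had 60.9, 72.8, 50.2 and 78.6 CPM against 105, 156, 144 and 163 CPM in control females (log2 fold change -1.12, adjusted p = 0.000831). Pparg males had 53.4, 91.6, 48.2 and 78.7 CPM, or -0.88 against the same control males (adjusted p = 0.0566, not called), so that comparison and the Tbet comparison share their controls. Pparg females had 83.9, 72.3, 69.3 and 78.5 CPM, below every control female, so the low level was seen under both knockout labels in both sexes. The knockout males differed from each other by -0.01, Tbet minus Pparg (95% interval -0.30 to 0.27), and the male effect minus the female effect was 0.23 (-0.17 to 0.63, adjusted p = 0.663).

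Within 1000 kb of Ide, 21 genes were tested, Ide included. Fgfbp3, a carrier protein of fibroblast growth factors 349 kb away, had 4.11, 1.99, 2.74 and 2.86 CPM in Tbet knockout males and 7.95, 5.64, 7.38 and 5.46 CPM in control males. These groups did not overlap, and the log2 fold change of -1.18 (unadjusted p = 0.00058) was not called by edgeR but was by DESeq2. The unannotated transcript 4931408D14Rik, named after its values were seen, had 22.9, 16.8, 30.0 and 14.9 CPM against 76.5, 25.7, 75.8 and 31.2 CPM in control males (-1.29, unadjusted p = 0.00281). Btaf1, a regulator of TATA-binding protein, stood at -0.27 (unadjusted p = 0.0187), and the others lay between -0.46 and 0.50.

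**Figure D3:**
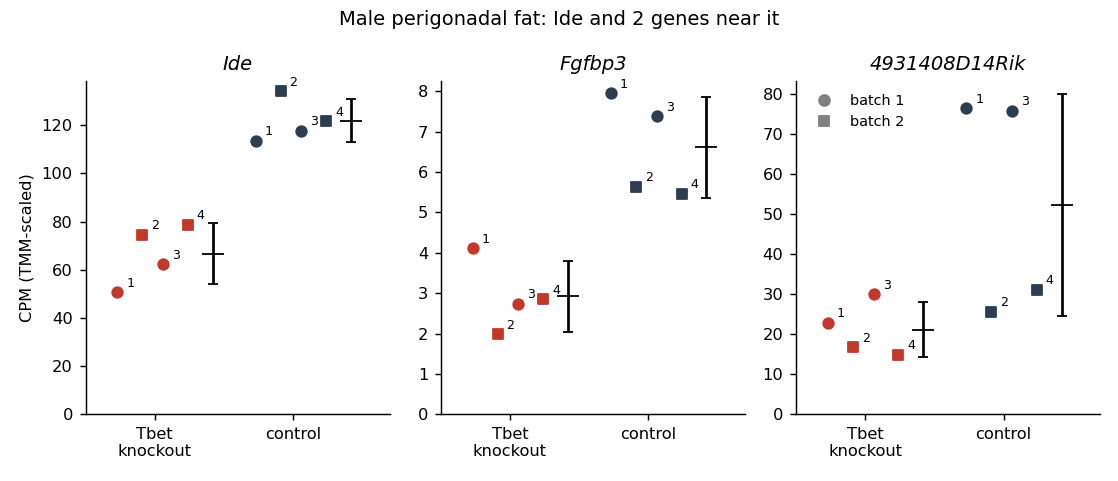
CPM (linear axes from 0) of Ide, Fgfbp3 and 4931408D14Rik in the 8 male libraries, by genotype, with replicate numbers, circles for batch 1, squares for batch 2, and bars for the mean and SD of 4 libraries. Ide lies between 50.7 and 78.7 CPM in Tbet knockout males and between 113 and 134 CPM in control males.

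None of the genes next in order passed the adjustment in edgeR. DESeq2 called 6 of those named here and on the lower side, namely Fbxw4, Izumo4, Taf15, Birc2, Gstm6 and Zbtb34, with adjusted p between 0.012 and 0.0489. Among those higher in knockout males at an unadjusted p under 0.05, with groups that did not overlap after the batch mean was removed (6.22% of all genes), were Fbxw4, a ubiquitin ligase subunit (0.46), Izumo4, of a sperm protein family (0.52), Taf15, an RNA-binding protein (0.41), Atp6v1g1, a proton pump subunit (0.59), and Mcee, of propionate breakdown (0.49). Prnd, a prion-like protein (0.84), Birc2, an inhibitor of cell death (0.27), Slc12a9, a transporter (0.45), Has3, a hyaluronan synthase (1.07), and Gstm6, a glutathione transferase (2.08), completed that direction. Gstm6 stood at 20.6, 18.7, 9.26 and 61.8 CPM in knockout males and 8.09, 6.94, 5.61 and 4.79 CPM in control males, the highest value being that of the library with epididymal RNA. Taf15 was tighter, at 123, 120, 104 and 134 CPM in knockout males and 84.9, 94.9, 91.1 and 88.6 CPM in control males.

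On the lower side stood Lox, the collagen cross-linking enzyme (-1.20), Cdt1, a replication licensing factor (-1.03), Sdc4, a cell-surface proteoglycan (-0.69), Nup43, a nuclear pore protein (-0.64), Etv5, an ETS factor (-0.54), H3f3c, a histone (-0.49), Zbtb34, a zinc finger protein (-0.43), and Ints7, an Integrator subunit (-0.32). Lox had 58.1, 129, 102 and 82.8 CPM in knockout males and 371, 131, 212 and 139 CPM in control males. Only its batch 1 controls stood far above the rest, and its batch 1 and batch 2 log2 fold changes were -1.87 and -0.35. Etv5 was more even, at 10.97, 9.84, 10.2 and 9.02 CPM in knockout males against 15.3, 13.5, 14.8 and 14.7 CPM in control males.

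When each batch was tested by itself in a model with 1 mean per group and batch, 51 genes (0.286%) were called in batch 1, 18 higher and 33 lower, and 5 (0.0281%) in batch 2, 2 higher and 3 lower. Without adjustment 1965 genes (11%) of batch 1 and 998 (5.6%) of batch 2 had p under 0.05, as had 1734 (9.73%) for the difference between batches. Each of these tests sets 2 libraries against 2 and takes its spread from all 24. The difference between the batches was itself called for 12 genes (0.0673%), 6 in each direction. These fits and the genes named from them were chosen after the data were seen. The counts lean on single libraries: without 1 of the 8 at a time, when a lone library is assumed to vary like the others, they were 9 to 44 in batch 1 and 2 to 73 in batch 2. The count of 73 arose without Tbet knockout replicate 2, which leaves the library with epididymal RNA alone.

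Mesothelial genes, of the lining of the body cavity, were lower in the batch 1 knockout libraries. Msln, mesothelin, stood at 22.4 and 10.8 CPM in batch 1 Tbet males against 129 and 91.1 CPM in batch 1 controls, and at 44.8 and 56.9 CPM against 32.1 and 13.997 CPM in batch 2. Its log2 fold change was -2.73 in batch 1 (adjusted p = 0.0395) and 1.15 in batch 2 (adjusted p = 0.842). Muc16, a mucin (-3.25), and Lrrn4, a leucine-rich repeat protein (-2.04), were called in batch 1 as well, 3 of the 15 mesothelium genes tested beside 0.185% of all genes lower, and for Lrrn4 the batches differed by -3.10 (adjusted p = 0.0487). The list median was -1.86 in batch 1 and 0.82 in batch 2, beside -0.01 and 0.01 over all genes.

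Of 16 resident macrophage genes 1, Itgam, was called lower in batch 1, and of 17 lipid-associated macrophage genes none, beside 0.185% of all genes. Itgam, the CD11b integrin of myeloid cells, stood at 28.1 and 30.9 CPM in batch 1 Tbet males against 99.4 and 68.5 CPM in batch 1 controls (-1.51, adjusted p = 0.0395), and at 65.6 and 75.9 CPM against 69.2 and 59.1 CPM in batch 2. Of the genes called lower in batch 1 outside these lists, Msr1, a scavenger receptor of macrophages, had 9.80 and 7.56 CPM against 28.0 and 21.9 CPM in batch 1 (-1.52). Hmox1, which breaks down haem, had 51.4 and 62.8 CPM against 190 and 145 CPM (-1.55), and Cfp, the complement factor properdin, 55.5 and 52.8 CPM against 131 and 115 CPM (-1.18). All 4 were named for being called lower in batch 1, and none was called in batch 2. With the replicate number as a block none of them passed in batch 1 either, with adjusted p of 0.0508 for Itgam, 0.0588 for Msr1, 0.0763 for Hmox1 and 0.0588 for Cfp. The resident macrophage list had a median of -0.68 in batch 1 and -0.13 in batch 2, and the inflammatory cytokine and chemokine list -0.87 and 0.46; for 7 of its 18 genes the effect was lower in batch 1 than in batch 2 at an unadjusted p under 0.05, as it was for 6.21% of all genes.

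Adgre5, the leukocyte adhesion receptor CD97, showed the smallest p for a difference between batches. It stood at 146 and 168 CPM in batch 1 Tbet males and 217 and 259 CPM in batch 2, against 350 and 349, then 164 and 170 CPM in control males. It was low in the batch 1 knockout pair and high in the batch 1 control pair, and the difference of log2 fold changes was -1.66 (adjusted p = 0.0091). In females that difference was 0.23 (adjusted p = 0.537), where 76 genes (0.426%) were called. Also called lower in batch 1 were Lox, Tgm2, a transglutaminase (-0.97), Hsd11b1, which reactivates glucocorticoids (-0.98), and Tmem119, known from microglia and bone (-1.49). Called higher in batch 1 were Nnt (1.54), Thra, a thyroid hormone receptor (0.94), and Klf2, an endothelial and T cell factor (1.34). With the replicate block Lox (adjusted p = 0.0588), Tgm2 (0.0714), Hsd11b1 (0.0545) and Klf2 (0.0632) no longer passed.

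Acp1, a low-molecular-weight phosphatase, was called in batch 2 through its controls. It had 53.0 and 56.2, then 36.2 and 33.0 CPM in Tbet males and 53.0 and 57.0, then 9.73 and 13.3 CPM in control males. Pparg males lay at 33.1 to 53.3 CPM, and the batch 2 control females at 12.1 and 13.1 CPM, so the 4 control libraries of batch 2 were the low ones in both sexes. Nr1d1, the clock repressor REV-ERB alpha, had 328 and 390, then 49.6 and 55.8 CPM in Tbet males and 195 and 246, then 125 and 156 CPM in control males. The difference between batches was 2.13 for Nr1d1 (adjusted p = 0.0154) and 1.64 for its paralogue Nr1d2 (adjusted p = 0.0175). In females it had the opposite sign, at -0.93 for Nr1d1 (adjusted p = 0.139) and -1.71 for Nr1d2 (adjusted p = 0.0115). Nr1d1, which was not among the genes in crossed order, lies 1.67 Mb from Tbx21 on chromosome 11. The time of day of sampling is not given in the labels, and no cause was tested.

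Over both batches, gene lists were described by the count of members at an unadjusted p under 0.05 and by the median log2 fold change, beside a median of -0.01 and 48.5% positive values over all genes. No member of any of the 37 lists was called by edgeR, with 2.17% of all genes higher and 2.2% lower at that p. The pan T cell list had 0 of 19 at that p (median 0.26, with 0.38 in batch 1 and 0.0075 in batch 2). The regulatory T cell list had 0 of 14 (-0.01, with 0.13 in batch 1 and -0.22 in batch 2), and the list of Pparg-type fat regulatory T cells 0 of 15 (-0.09, with -0.07 and -0.04). In the last, Il1rl1 had 11.9, 12.2, 7.47 and 9.77 CPM in Tbet knockout males and 5.96, 10.1, 5.61 and 7.25 CPM in control males (0.57, unadjusted p = 0.144). The T-bet program and cytotoxic list had 0 of 26 (median 0.10, -0.17 in batch 1 and 0.56 in batch 2). In that list Klrk1, the activating receptor NKG2D, had 2.84, 4.98, 4.02 and 5.19 CPM against 2.56, 2.42, 2.57 and 3.33 CPM in control males (0.61, unadjusted p = 0.0732).

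Such sparse genes were measured loosely. The interval lay within 1 log2 unit of 0 for 1 of 19 pan T cell genes, 7 of 14 regulatory T cell genes and 2 of 26 genes of the T-bet program. It did so for 19 of 20 MHC class I genes, 20 of 23 cholesterol synthesis genes and 18 of 20 insulin signalling genes, and the medians of the first pair were 0.07 and -0.01.

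Among myeloid and B cell lists, values over both batches were mostly below 0, but not every list kept that sign in batch 2. The median was -0.64 in batch 1 and 0.14 in batch 2 for neutrophils and mast cells. For lipid-associated macrophages it was -0.39 and 0.26. It stayed negative for B and plasma cells, at -1.39 and -0.65, and for resident macrophages, at -0.68 and -0.13. Of 16 resident macrophage genes 15 were negative (median -0.42) and 2 lower at that p. Cd68, a lysosomal macrophage marker, had 46.8, 53.2, 52.8 and 56.6 CPM in knockout males and 143, 55.3, 104 and 46.3 CPM in control males (-0.72, unadjusted p = 0.042), the batch 1 controls being the high ones. Lyve1, a hyaluronan receptor of perivascular macrophages and lymphatic vessels, had 41.5, 33.8, 23.7 and 47.2 CPM against 101, 85.0, 60.6 and 50.7 CPM in control males (-1.06, unadjusted p = 0.0219), without overlap. The neutrophil and mast cell list had 2 of 11 lower (median -0.61), among them S100a9, an alarmin, at 0.376 to 0.662 CPM in knockout males and 0.496 to 3.98 CPM in control males. The B cell and plasma cell list had 2 of 18 lower (median -0.81). Its leading member Igkc, the kappa light chain, stood at 3.91, 66.2, 1.89 and 26.5 CPM in knockout males and 93.0, 64.3, 118 and 674 CPM in control males (-3.22, unadjusted p = 0.0146), with the highest value in the control library rich in plasma cell RNA. Within batch 1, which lacks that library, the log2 fold change of Igkc was -5.19 and was not called in the model by group and batch (adjusted p = 0.155). It passed only when the batch 1 libraries were fitted by themselves (-5.17, adjusted p = 0.0130).

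Of type 2 immunity, 2 of 15 genes were lower (median -0.06). Arg1, arginase, had 1.47, 0.640, 2.84 and 1.35 CPM in knockout males and 25.6, 1.18, 10.9 and 1.08 CPM in control males (-2.25, unadjusted p = 0.0306), and Il13 was under 1 CPM in every library. The interferon gamma list had 19 of 23 positive values and 1 member at that p, Ido1, which degrades tryptophan. The list median of 0.33 was 0.14 in batch 1 and 0.45 in batch 2, and ran from 0.12 without control replicate 2 to 0.55 without control replicate 3. Without the 5 libraries with Foxj1 at 18.0 CPM or more, which leaves 1 knockout library, it was 0.026. Ido1 had 1.37, 0.604, 1.04 and 5.71 CPM against 0.521, 0.620, 0.467 and 0.542 CPM in control males (1.91, unadjusted p = 0.00526), the highest in the library with epididymal RNA. MHC class II genes had 2 of 19 higher (median 0.14). H2-Aa, an alpha chain that presents peptides to CD4+ cells, had 432, 322, 386 and 332 CPM in knockout males against 269, 216, 266 and 272 CPM in control males (0.52, unadjusted p = 0.0307), and H2-DMa 42.5, 27.3, 36.1 and 23.6 CPM against 23.7, 16.9, 24.7 and 20.9 CPM (0.57, unadjusted p = 0.0123). H2-Aa did not overlap between the groups, nor did 1.51% of all genes.

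In adipocyte and stromal lists single members stood out. Adrb3, the beta 3 adrenergic receptor that drives lipolysis, had 956, 319, 879 and 548 CPM in knockout males and 335, 371, 471 and 341 CPM in control males (0.85, unadjusted p = 0.0302), high in both batch 1 knockout libraries. It was the 1 member of 20 mature adipocyte genes at that p (median -0.12). Pi16, a marker of adventitial progenitors, had 73.3, 56.8, 68.4 and 49.4 CPM against 21.2, 45.6, 26.1 and 43.4 CPM in control males (1.06, unadjusted p = 0.0135), without overlap, while the progenitor list had a median of -0.01. Fatty acid oxidation had 18 of 20 negative values (median -0.20) and 0 at that p, and oxidative phosphorylation 18 of 25 positive (0.05) with 1, Sdhd, at 11.4, 18.6, 16.02 and 17.9 CPM against 12.02, 7.56, 12.6 and 10.6 CPM in control males. Cell cycle genes had 19 of 22 negative (median -0.27) and 2 lower at that p, Mcm5 (-0.62) and Pcna (-0.25), both replication factors. The list median was -0.47 in batch 1 and -0.004 in batch 2. With each batch fitted by itself, Mcm5 stood at -1.15 in batch 1 and -0.012 in batch 2, and Pcna at -0.46 and -0.009.

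**Figure D4:**
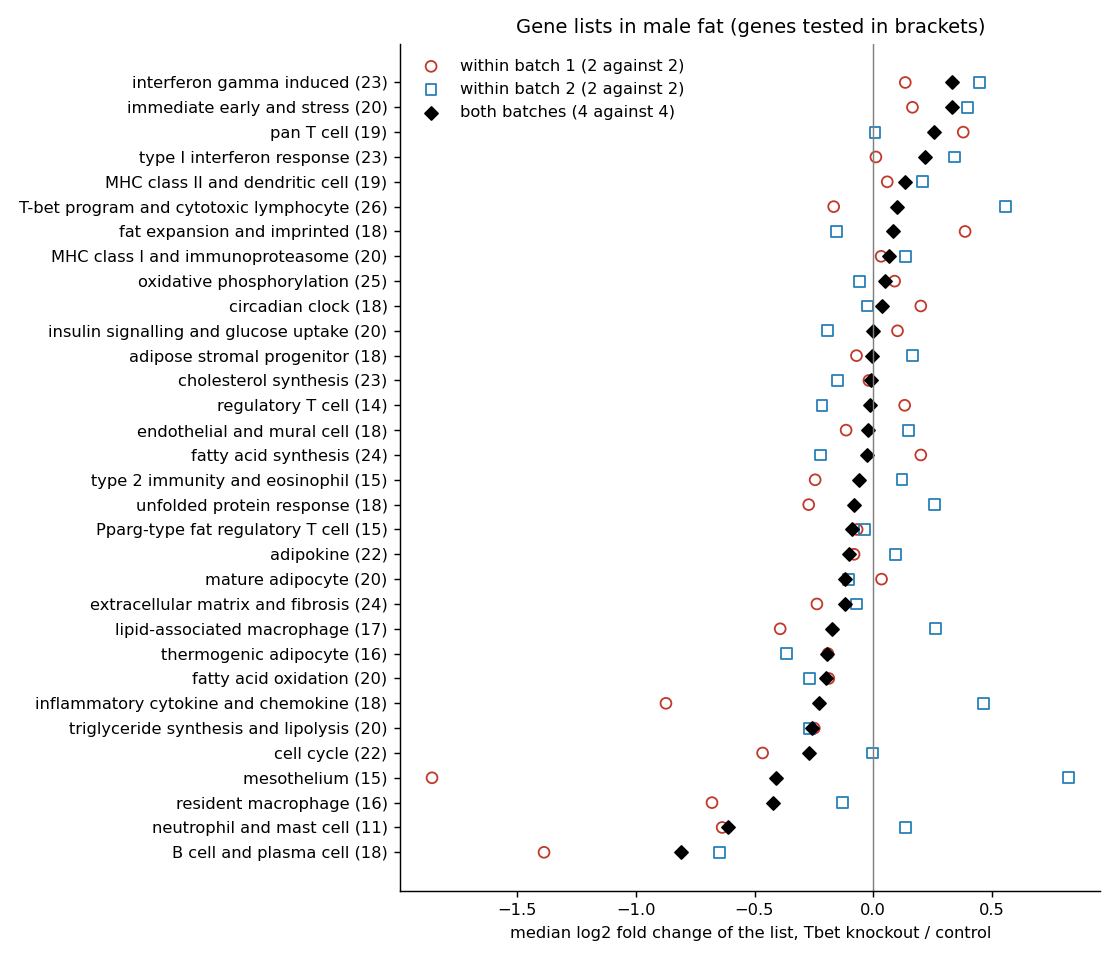
Median log2 fold change (Tbet knockout over control males) of the gene lists, with the genes tested in brackets: circles within batch 1, squares within batch 2, diamonds over both batches. Mesothelium lies at -1.86 in batch 1 and 0.82 in batch 2, and inflammatory cytokines at -0.87 and 0.46.

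The effect in males was set against that in females, which shares no library with it. The difference was called for 1 gene (0.00561%) and had p under 0.05 for 2050 (11.5%), 1049 higher and 1001 lower in males. The gene was Abcg1, an exporter of cholesterol to HDL. In males it had 52.5, 41.6, 52.8 and 42.4 CPM in Tbet knockouts and 56.8, 38.7, 56.7 and 48.2 CPM in controls, and in females 70.4, 62.1, 64.9 and 65.0 CPM in Tbet knockouts and 33.0, 16.1, 29.9 and 20.8 CPM in controls. Male values overlapped and female values did not. The log2 fold change was -0.08 in males (95% interval -0.41 to 0.25) and 1.42 in females, a difference of -1.50 (-1.98 to -1.02, adjusted p = 0.0405, and 0.107 with the replicate number as a block). In batch 1 by itself the Abcg1 difference was -1.21 (adjusted p = 0.0206) and in batch 2 by itself -1.83 (adjusted p = 0.0709). Control female replicate 1 held RNA of ciliated and ductal epithelium, with Foxj1 at 376 CPM and Adipoq at 659 CPM. Replicates 2 to 4 of that group had Foxj1 at 0.0396, 0.724 and 0.150 CPM and Adipoq at 3844, 1694 and 2898 CPM. Replicate 1 enters the female effect over both batches and in batch 1. Without it the Abcg1 difference was -1.63 (adjusted p = 0.0105). Its part in the gene list values below was not tested.

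Lipid synthesis genes, lower in Tbet knockout females, had a median near 0 in males over both batches. Of 24 fatty acid synthesis genes 19 had p under 0.05 for a higher value in the male effect, beside 5.89% of all genes, and none was called by edgeR. The median log2 fold change of the list was -0.02 in males (0.20 in batch 1, -0.22 in batch 2) and -1.99 in females. Without the 5 libraries with Foxj1 at 18.0 CPM or more, which leaves 1 knockout male library, the male median was 0.58. For 22 of 24 genes the male interval lay wholly above the female estimate, as it did for 2588 of all 17824 genes. That count leaves out the error of the female estimate. Elovl6, which elongates palmitate, had 17.5, 45.6, 46.7 and 70.5 CPM in Tbet males and 14.4, 70.5, 15.1 and 81.3 CPM in control males, against 26.5, 26.7, 28.0 and 37.0 CPM in Tbet females and 349, 638, 501 and 1103 CPM in control females. Pparg females, at 245, 216, 597 and 178 CPM, were above the Tbet females as well, and the male level was low in both genotypes. Its log2 fold change was 0.19 in males (-0.93 to 1.30) and -4.32 in females, a difference of 4.51 (adjusted p = 0.0979), which DESeq2 and both limma fits called. Acly, which makes cytosolic acetyl-CoA, followed with 0.11 in males and -3.28 in females (adjusted p of the difference 0.0979). For cholesterol synthesis 16 of 23 genes had p under 0.05 in the same direction. In the other direction, 12 of 16 resident macrophage genes, 13 of 20 MHC class I genes and 9 of 23 interferon gamma genes were lower in the male effect at p under 0.05, beside 5.62% of all genes. Within batches the median male effect minus female effect was 2.11 in batch 1 and 1.92 in batch 2 for fatty acid synthesis, and 1.01 and 1.29 for cholesterol synthesis. It was -1.93 and -0.67 for resident macrophages, -1.11 and -0.45 for MHC class I, and -1.18 and -0.56 for the interferon gamma list.

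**Figure D5:**
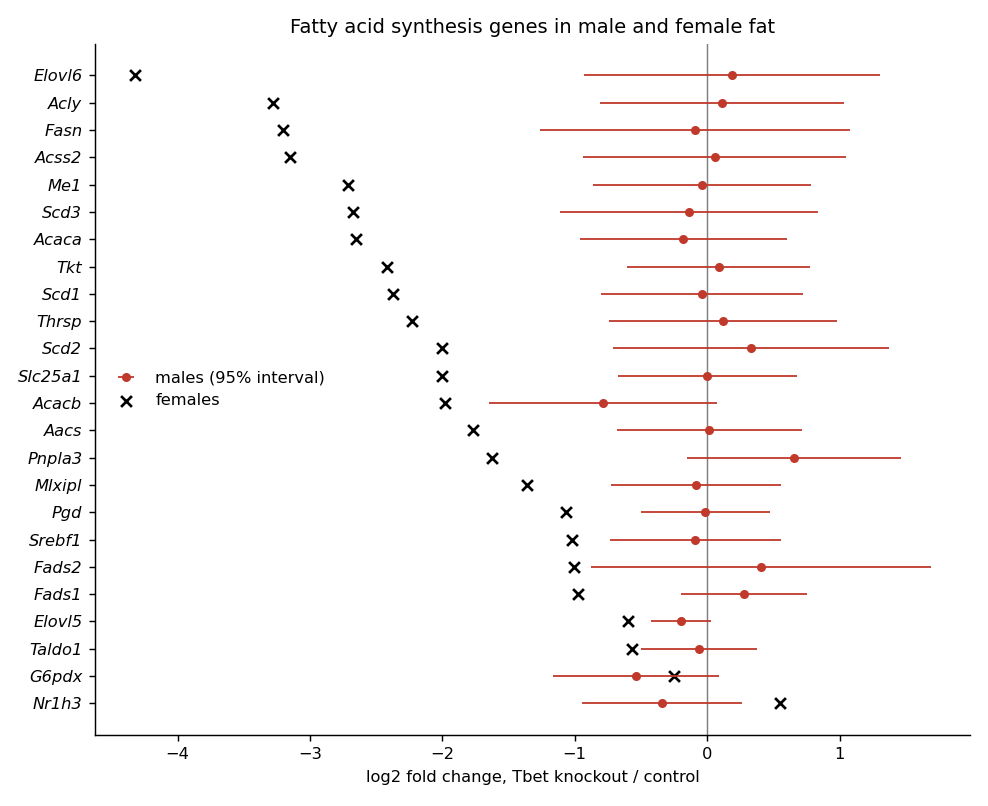
Log2 fold change (Tbet knockout over control) of 24 fatty acid synthesis genes, as points with 95% intervals for males and crosses for females, ordered by the female value. Elovl6 stands at 0.19 in males and -4.32 in females, and 22 of 24 male intervals lie above the female cross, as do 2588 of 17824 over all genes.

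Tbet knockout males were also set directly against Pparg knockout males. In edgeR none of 17824 genes was called (0%), 756 (4.24%) had an unadjusted p under 0.05, 330 higher (1.85%) and 426 lower (2.39%), and DESeq2 called 6 and limma with voom weights 0. B cell genes were lower in Tbet males at that p for 11 of 18 (median -2.05) and resident macrophage genes for 8 of 16 (-0.62). The B cell median was -3.03 in batch 1 and -0.82 in batch 2, and the macrophage median -0.57 and -0.64. For the 14 genes that followed label and batch in crossed order, the pooled difference averages opposite values. Nnt stood at -0.05 and Klrg1 at 0.17 over both batches. Small pooled values of such genes follow from choosing them by that order. Whether the order bears on other genes of this comparison was not tested.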

How the data were processed

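RNA of whole fat was sequenced from 24 libraries prepared, per the labels' protocols, with lipid tissue and TruSeq kits. The authors deposited 1 table of raw counts; the submitters' processing notes name featureCounts with GRCm38 and mm10. Aligner, annotation and versions: not given in the sources used here. The authors also deposited log2 FPKM values for 15764 genes, whose offset is not stated; 93.0% of 1336 values at equal count ranks were equal across libraries (tolerance 1e-09), as after quantile normalization, and they served 1 alternative test only. Of 27179 genes counted, those lacking a symbol (1029, or 3.79%, with 0.433% of all counts) were tested and not named. RefSeq positions on GRCm38 were matched to 25275 genes through Entrez identifiers.

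The main test was edgeR 4.0.16 in R 4.3.3: filterByExpr by group, TMM scaling, and a robust quasi-likelihood F test on all libraries, with terms for 6 groups and for batch (17 residual degrees of freedom, common biological coefficient of variation 0.404). Log2 CPM used a prior count of 2. Contrasts were Tbet knockout against control males, the male effect minus the female effect, and Tbet against Pparg males. DESeq2 1.42.0, limma 3.58.1 and other settings were alternatives. A fit with 1 mean for each group and batch (12 residual degrees of freedom) was added after the data were seen. Scripts were tested on simulated counts. Reads are not independent molecules, and intervals on the fits cover the spread between libraries only. Libraries of a group differed by more than sampling noise.

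Same-numbered Tbet knockout and control males deviated together from their group means (r = 0.157, 0.668, 0.699 and 0.386 for numbers 1 to 4, batch included), so the blocked value is given beside the named calls it ends; within batches r was 0.132 and 0.100. The title was followed for control female replicate 1, whose source name gives another batch.

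The members, the 37 lists (708 genes, 652 tested) and the tests were chosen with earlier results of these data known. Named by rule were Tbx21, Foxp3 and Pparg; up to 15 called genes per direction by size whose mean log2 CPM reached 1 and whose groups did not overlap once batch means were removed, filled up to 10 by the smallest unadjusted p; up to 3 members per list by the smallest p; and called genes of the other contrasts. Predicted genes, pseudogenes and variable segments were counted, not named, except where the text says so.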

Additional observations from a re-analysis of the deposited data

Results flagged for a closer look

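For 106 genes, the 4 libraries of each male group were checked for 1 library far from the rest, by the gap to its nearest neighbour over the range, against Dixon's 95% critical value. Of 212 groups 18 passed. The genes checked included markers already known to be high in single libraries, such as Crisp1, Prm1 and Ighg1. The chance rate of about 1 in 20 is therefore no measure for that count. In Tbet knockout males the library apart was replicate 4 for every such gene: Crisp1 (1.0), Adam7 (0.989), Tnp2 (0.984), Prm1 (0.908), Xist (0.887) and Ido1 (0.85). In control males replicate 4 stood highest for Ighg1 (0.999), Jchain (0.93), Igkc (0.911), Lrmda (0.857), Mzb1 (0.837) and Klrk1 (0.833). Control replicate 1 stood highest for Tnp2 (0.986), Prm1 (0.985) and Elobl (1.0, at 0.142 CPM with the other controls at 0), and control replicate 3 for Crisp1 (0.997) and Adam7 (0.895). Control replicate 2 stood lowest for H2-Aa (0.903).

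The effect in males differed from that in females for Abcg1, by -1.50 on the log2 scale. The male effect in batch 1 minus that in batch 2 passed the adjustment for 12 genes, including a predicted gene and a pseudogene named after their values were seen. It was negative for Ppfia4 (-3.37), Lrrn4 (-3.10), Adgre5 (-1.66), Acp1 (-1.59), Entpd4b (-1.52) and Entpd4 (-1.46). It was positive for Gm9241 (4.58), Nr1d1 (2.13), Tmem181b-ps (2.04), Tnk2 (1.93), Nr1d2 (1.64) and Glrx2 (0.98). In females, which share no library with these males, the same difference was called for Entpd4b (-1.28), Entpd4 (-1.38), Acp1 (-1.64) and Glrx2 (0.94) in the same direction and for Nr1d2 (-1.71) in the opposite one. With the replicate number as a block, Glrx2 (adjusted p = 0.0649), Ppfia4 (0.0631) and Tnk2 (0.0942) no longer passed. No cause of these differences was tested.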

How the results depend on the processing

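The count of 1 gene in Tbet knockout against control males became 0 with the 8 libraries alone, with no batch term, and with no filter on low counts. It was also 0 with the source-name batch of control female replicate 1, in batch 2 alone, and without any 1 library (0 to 0). Without the 3 libraries with RNA of other organs it was 0 as well. It became 21 with DESeq2 and 6 in batch 1 alone. Leaving out the 5 with ductal epithelium leaves 1 knockout library, so no count is given for that setting. The male minus female count of 1 became 0 with no batch term, the source-name batch, DESeq2 size factors, or the 3 libraries left out. It became 236 with DESeq2, 13 with voom, 9 with log2 FPKM, 183 with only batch 1 and 2 with only batch 2. Without 1 library it ranged from 0 to 8, the 8 being without control female replicate 1. Tbet against Pparg males gave 6 genes with DESeq2, 11 with only batch 1 and 2 with only batch 2. It gave 0 in the other fits that kept more than 1 library of each group. With the replicate number as a block the first pair of counts became 0 and 0, and in the fit by group and batch the block gave 11, 41 and 5 genes for the batch difference, batch 1 and batch 2, against 12, 51 and 5. Without 1 library those 3 counts ranged from 3 to 66, 9 to 44 and 2 to 73, and the highest of the first and last were without Tbet knockout replicate 2. The cause was not tested.

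The sign turned for values near 0 or between batches. Foxp3 became -0.043 with the 8 libraries alone, -0.44 with voom and -0.42 in batch 2 alone, and ranged from -0.52 to 0.36 without 1 library (-0.52 without Tbet knockout replicate 3, -0.19 without control replicate 2). Pparg became 0.11 without the 3 libraries and 0.10 without the 5, and ranged from -0.27 to 0.029 without 1 library. The Abcg1 effect in males became 0.0087 without the 3 libraries. In batch 2 alone Cd68 (0.12), Itgam (0.15), Lgals3 (0.43), Lipa (0.12) and Timp1 (1.02) were positive. Of 1644 values for single genes under the alternatives, 1602 kept direction and call. Only Ide had a call to lose, and it was called in 6 of its 23 alternatives. Of 874 list medians 837 moved by less than the spread between libraries. Counts near 1 CPM, as for Tbx21 and Foxp3, limit what depth can show.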
